A study of Mus musculus with 6 samples.

Results

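The genes described here encode the SR proteins (Srsf), the heterogeneous nuclear ribonucleoproteins (Hnrnp), the subunits of splicing factor 3 (Sf3a and Sf3b, grouped here as Sf3) and the small nuclear ribonucleoprotein polypeptides (Snrp). Members were every gene whose symbol begins with Srsf, Hnrnp, Sf3a, Sf3b or Snrp, without pseudogene entries marked -ps, which gave 52 of the 41128 genes in the table. There were 20 Hnrnp, 12 Snrp, 11 Srsf and 9 Sf3 genes. Of these, 50 had an RPKM (mapped reads scaled to gene length and to the reads of the library) over 0.5 in at least 1 mouse and were tested, 20 Hnrnp, 11 Snrp, 10 Srsf and 9 Sf3 genes. Snrpn, which encodes an alternative Sm protein, and Srsf12 were listed at 0 in all 6 mice, but the identifier listed as Snrpn carries another gene name in the annotation used here, GENCODE M21. The 2 pseudogene entries left out were also at 0.

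Splicing removes introns from precursor RNA in steps carried out by small nuclear ribonucleoproteins, whose cores are rings of Sm proteins around a small nuclear RNA, and the SF3A and SF3B complexes hold the U2 particle at the branch site. SR proteins bind exons and mostly favor their use, whereas Hnrnp proteins coat nascent RNA and often oppose it, and many genes of both groups tune their own transcripts through exons that lead to RNA decay. In myeloid malignancies of humans, SRSF2 and SF3B1 are among the splicing factor genes that are recurrently mutated.

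The study asked what IRX3 adds to leukemia driven by Hoxa9. KIT+ bone marrow (BM) cells of CD45.1+ young adult female mice received a retroviral vector for FLAG-tagged Hoxa9 together with either the empty vector MTV (Hoxa9/MTV) or a retroviral vector for MYC-tagged human IRX3 (Hoxa9/IRX3), were selected with drugs and were transplanted with whole CD45.2+ BM cells into lethally irradiated CD45.2+ young adult females. Leukemic BM of sick recipients had been frozen, and after thawing donor-derived KIT+Gr1+ AML cells were flow sorted from 3 mice of each cohort, all labelled C57BL/6. In the study AML arose later in Hoxa9/IRX3 than in Hoxa9/MTV recipients. Time since transplantation and age at harvest may thus differ between the cohorts and cannot be told apart from IRX3. Each mouse, 1.1, 1.2 and 1.4 with Hoxa9/MTV and 3.2, 3.3 and 3.5 with Hoxa9/IRX3, gave 1 strand-specific polyA RNA sequencing library. Both genes were expressed from viral promoters, in every cohort the cells carried Hoxa9 and a second vector, and the KIT+Gr1+ gate limits the comparison to that fraction of each leukemia.

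The reads to which RPKM were scaled, recovered from the steps between low values, numbered 8843083, 8305937 and 9672522 in mice 1.1, 1.2 and 1.4 and 8860734, 9803621 and 7979246 in mice 3.2, 3.3 and 3.5. Mouse 3.5 thus had the fewest reads. The 52 genes took 1.15%, 1.14% and 1.21% of gene reads in the Hoxa9/MTV mice and 1.12%, 1.14% and 0.966% in the Hoxa9/IRX3 mice, with mouse 3.5 lowest. As a check of the labels, RPKM of Hoxa9, the homeobox gene given to both cohorts, were 340, 363 and 174 with Hoxa9/MTV and 242, 154 and 221 with Hoxa9/IRX3. The cohorts overlapped (exact permutation test, two-sided, p = 0.3). RPKM of Irx3, the mouse gene of the second homeobox factor, which do not measure the human cDNA in full, were 0, 0 and 0 with Hoxa9/MTV and 15.1, 0.421 and 0.148 with Hoxa9/IRX3. All 3 Hoxa9/IRX3 mice lay above the Hoxa9/MTV mice, in 2 of them narrowly (p = 0.1 by the same exact permutation test, which can go no lower with 3 mice a group).

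Of the 50 tested members, 1 gene, Hnrnpdl, was lower with Hoxa9/IRX3 and 0 were higher at an adjusted p under 0.05 (limma with Benjamini-Hochberg adjustment over 9522 protein-coding genes), which is 2% lower beside 3.52% of all tested genes lower and 1.84% higher. With a change of at least 2-fold as well, 0 members passed in either direction, beside 1.10% of all tested genes higher and 2.03% lower. At an unadjusted p under 0.05 the members numbered 0 higher and 8 lower (16%), beside 8.34% and 16.0% of all tested genes. This balance changed to 3 higher and 5 lower with median-of-ratios scaling (all tested genes 11.7% and 12.9%) and to 2 and 3 with quantile normalization (12.4% and 12.3%). It was 1 higher and 3 lower without mouse 1.1, 0 and 3 without mouse 1.2, 0 and 2 without mouse 1.4, 0 and 7 without mouse 3.2, 0 and 10 without mouse 3.3, and 3 and 2 without mouse 3.5. In those fits all tested genes numbered between 5.56% and 9.80% higher and between 9.96% and 18.5% lower. In 3 members (6%) every Hoxa9/IRX3 mouse exceeded every Hoxa9/MTV mouse, and in 15 (30%) the reverse held, against 12.2% and 21.6% of all tested genes. With RPKM as deposited, the share lower at an unadjusted p was that of all tested genes, and the share called lower was below it. With limma voom on recovered reads 0 members were higher and 1 was lower, beside 1.91% and 3.27% of all tested genes. The study's own criterion asks for a ratio of means over 2 beside an unadjusted p under 0.05. Applied to the 9522 genes tested here, not to the study's smaller set of genes, it gave 0 members higher and 0 lower, beside 2.26% and 4.72%.

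Differences in expression, given from here on as log2 fold changes of RPKM + 0.5 (Hoxa9/IRX3 over Hoxa9/MTV), ran from -0.93 to 0.43 in the tested members, and in none exceeded 2-fold on this scale. Of the members 15 were above 0 and 35 below, beside 4047 and 5475 of all tested genes. The median of the members was -0.20, beside -0.06 over all tested genes. Without mouse 3.5 it became -0.09, beside -0.03 over all tested genes. The standard error of a single member's difference had a median of 0.16. By family the median difference was -0.33 for Srsf (1 gene above 0, 9 below) and -0.22 for Snrp (0 above, 11 below). Both stayed below 0 under every scaling, at -0.25 and -0.17 with median-of-ratios scaling and -0.21 and -0.16 with quantile normalization. That of Snrp was more negative with limma voom on recovered reads (-0.30) and with RPKM + 0.1 (-0.31). With RPKM + 1 it was -0.17. For Hnrnp (10 above, 10 below) the median difference was -0.05 and for Sf3 (4 above, 5 below) -0.04. These medians became 0.04 and 0.04 with median-of-ratios scaling and 0.10 and 0.05 with quantile normalization. That of all tested genes rose with them, from -0.06 to 0.01 and 0.02. Both families lay above it in each of these fits, so crossing 0 is no turn relative to all tested genes. Quantile normalization also shifted the balance of calls over all genes, from 175 higher and 335 lower (34.3% higher) to 234 and 274 (46.1% higher). With RPKM as deposited, 6 of 20 Hnrnp genes (30%) and 2 of 10 Srsf genes (20%) were lower at an unadjusted p under 0.05 (limma). In Snrp and Sf3 0 genes were, beside 16.0% of all tested genes. In whole sorted populations, fewer cells of a type and less RNA per cell cannot be told apart.

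**Figure D1:**
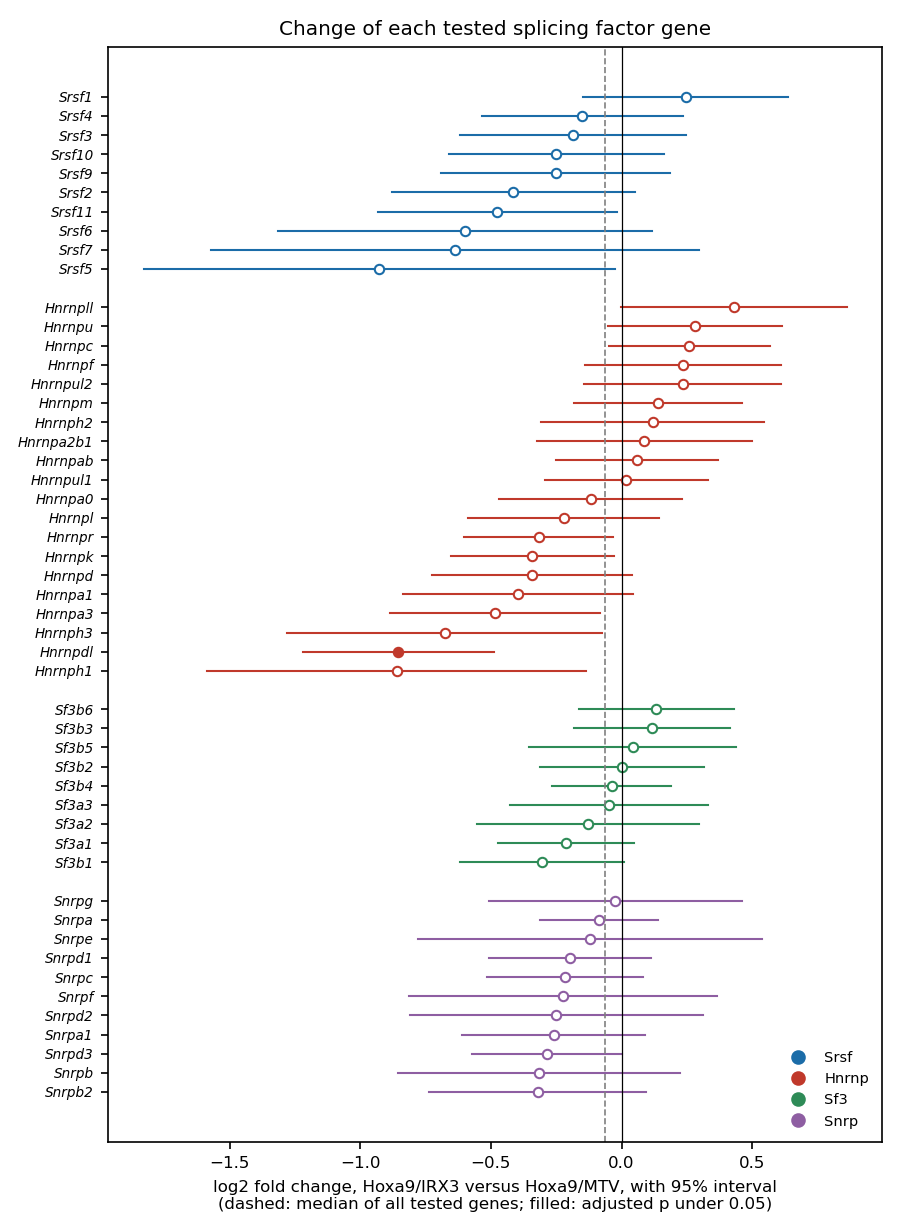
Differences of the 50 tested members (horizontal axis, log2 fold change of RPKM + 0.5, Hoxa9/IRX3 over Hoxa9/MTV, n = 3 mice a group), grouped by family, each point with its 95% confidence interval and the dashed line at the median of all tested genes, -0.06. Only the filled point, Hnrnpdl at -0.85, has an adjusted p under 0.05. The medians of Hnrnp and Sf3, just below 0 here, lie above 0 with median-of-ratios scaling and quantile normalization, as does that of all tested genes (0.01 and 0.02).

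Levels between genes were compared as reads scaled to exon length and to the reads of the library, in the unit of RPKM. The authors' RPKM divide by the whole gene with its introns, of which exons made up a median of 34.3% in the members. Exon length here joins all annotated exons of a gene, 5710 bases in Srsf1 and 6521 in Snrpc. The transcripts with the longest coding sequence have 1209 and 882 bases. The order of genes therefore depends on this choice of length, and the ranks below hold for this scale only. On this exon scale the most abundant members over the 6 mice were Hnrnpab at 271 ± 14.2 (SD, n = 6) and Srsf2 at 263 ± 61.6, whose levels did not differ beyond their spread, then Hnrnpa0 at 214 ± 20.1 and Srsf1 at 158 ± 21.1. Exon-scale levels of Hnrnpab were 250.2, 280.3 and 267 with Hoxa9/MTV and 292, 271 and 268 with Hoxa9/IRX3, and those of Srsf2 were 268, 262 and 377 against 249, 228 and 196. Srsf2 was thus the higher of the pair in mice 1.1 and 1.4, and Hnrnpab in mouse 1.2 and all 3 Hoxa9/IRX3 mice. Hnrnpa2b1 and Hnrnpu, named after their values were seen, followed at exon-scale levels of 113 ± 14.2 and 108 ± 13.8. The Sf3 genes were lower, led by Sf3b2 at 46.0 ± 3.07 and Sf3b1 at 38.5 ± 5.62. The Snrp genes lay at the low end of the exon scale, from Snrpb at 17.5 ± 4.00 and Snrpd1 at 15.9 ± 2.66 down to Snrpc, named as the least abundant tested member, at 0.991 ± 0.191. Tested genes of the other families reached into this range, 8 in all, among them Hnrnpr, named as the lowest of these, at 3.91 ± 0.704. Small Sm genes therefore rest on few reads, for example 44 to 132 reads a mouse for Snrpe, against 1042 to 2730 for Hnrnpdl.

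**Figure D2:**
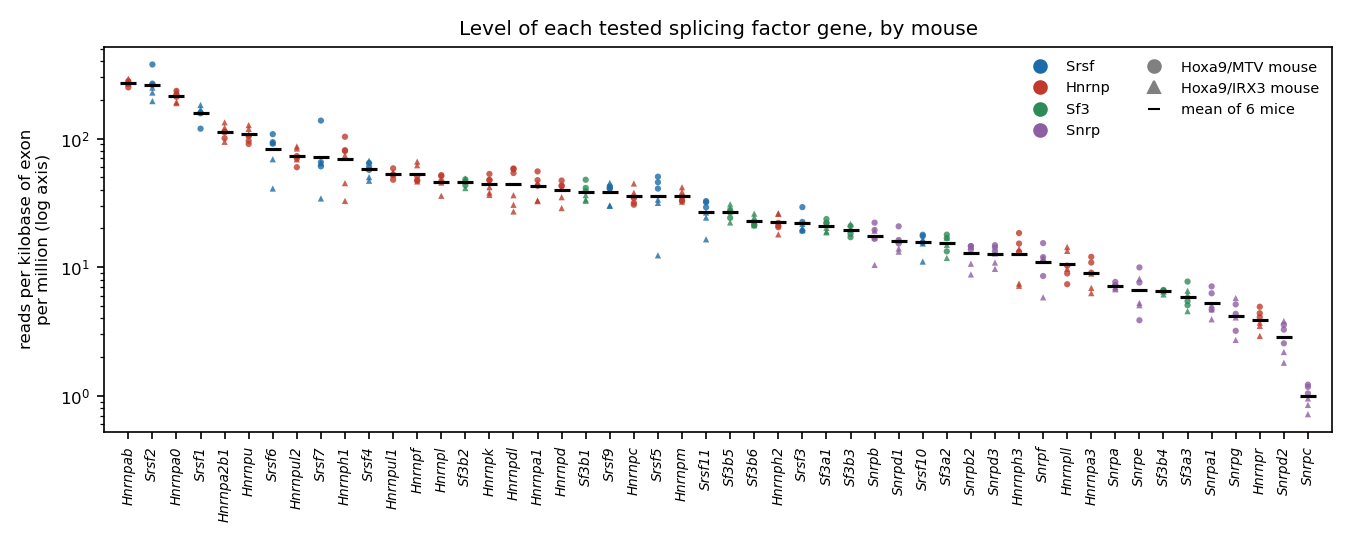
Exon-scale level (vertical log axis, reads scaled to exon length and library size, in the unit of RPKM) of every tested member in each of the 6 mice, with circles for Hoxa9/MTV, triangles for Hoxa9/IRX3 and a dash at the mean of the 6 mice. On this scale, which divides by all annotated exons of a gene, Hnrnpab (271) and Srsf2 (263) have the highest means and Snrpc (0.991) the lowest.

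Among the Hnrnp genes the called member was Hnrnpdl (ENSMUSG00000029328), a relative of Hnrnpd that shuttles between nucleus and cytoplasm and acts on alternative splicing. Its RPKM were 42.7, 45.7 and 46.4 with Hoxa9/MTV and 24.2, 28.7 and 21.5 with Hoxa9/IRX3. The Hoxa9/MTV mice were close to each other, and all 3 Hoxa9/IRX3 mice lay well below them. Mean RPKM were 44.9 ± 1.95 (SD, n = 3) and 24.8 ± 3.66, and expression fell by 0.85 on the log2 scale (SE 0.15, 95% confidence interval -1.22 to -0.49, adjusted p = 0.0312 with limma, lower in 3 of 3 mice). The reads behind these values were 2299, 2312 and 2730 against 1304, 1713 and 1042. The call was lost without mouse 1.1, 1.2 or 1.4, with adjusted p of 0.116, 0.138 and 0.143 and differences of -0.89, -0.84 and -0.83, and it was lost by a small margin over genes of all types (adjusted p = 0.0505). Over all alternatives the difference in Hnrnpdl ran from -0.96 to -0.76 and the adjusted p from 0.0202 to 0.143 (the study's criterion, which leaves p unadjusted, aside). Leaving out a Hoxa9/MTV mouse took calls over the whole table from 175 higher and 335 lower to between 24 and 28 higher and between 37 and 46 lower.

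Hnrnpdl lies 54.6 kb from Hnrnpd on the same strand of chromosome 5, and their promoters are given because the neighbours are close relatives of which 1 was called. RefSeq promoter windows of 300 bases, 250 before and 50 after the start of a transcript (GRCm38.p6), were matched to 46 of the 52 genes by symbol. Windows for Hnrnpll, Hnrnpul2, Sf3b4, Sf3b5, Snrpb and Snrpd1 were not used here. They were searched on both strands for GGGCGG (the GC box), CCAAT (the motif of NF-Y), CCGGAAG (an ETS motif), ATGGCGG (a YY1 motif), CACGTG (the E-box) and ACANNTGT (the palindrome bound by Iroquois factors, the class of IRX3). Capitals mark the matches in the sequences, which run 5′ to 3′ along the minus strand, chr5:100039173-100039472 for Hnrnpdl and chr5:99978889-99979188 for Hnrnpd.
Hnrnpdl: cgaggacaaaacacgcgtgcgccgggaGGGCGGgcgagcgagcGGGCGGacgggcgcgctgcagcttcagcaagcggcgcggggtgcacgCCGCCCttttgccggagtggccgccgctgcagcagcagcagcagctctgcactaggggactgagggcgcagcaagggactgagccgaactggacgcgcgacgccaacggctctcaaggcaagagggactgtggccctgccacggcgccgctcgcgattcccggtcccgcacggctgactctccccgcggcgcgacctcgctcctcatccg
Hnrnpd: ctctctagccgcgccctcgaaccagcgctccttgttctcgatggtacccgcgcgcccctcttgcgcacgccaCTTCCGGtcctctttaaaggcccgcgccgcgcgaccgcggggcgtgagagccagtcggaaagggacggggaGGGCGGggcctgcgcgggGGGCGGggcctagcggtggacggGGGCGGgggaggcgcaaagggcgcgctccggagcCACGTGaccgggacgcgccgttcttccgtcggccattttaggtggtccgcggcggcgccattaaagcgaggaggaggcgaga
The window of Hnrnpdl held 3 GGGCGG and no other motif searched, at 72.7% G and C. In GENCODE M21 the gene starts further upstream, at base 100039664, so this window lies wholly within Hnrnpdl as annotated there. The window of Hnrnpd, an RNA-binding protein that also controls RNA decay, held 3 GGGCGG, 1 CCGGAAG and 1 CACGTG, at 72.3% G and C. RPKM of Hnrnpd, named here as the neighbour after its values were seen, were 13.7, 15.1 and 13.7 with Hoxa9/MTV and 9.20, 13.1 and 11.2 with Hoxa9/IRX3. All 3 Hoxa9/IRX3 mice lay below the Hoxa9/MTV mice, mouse 3.3 by little, and the difference did not pass the test (-0.34, SE 0.16, adjusted p = 0.242).

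Hnrnph1 binds runs of G in RNA and had the most negative difference in its family. Its RPKM were 48.9, 49.8 and 63.3 with Hoxa9/MTV and 27.6, 45.4 and 20.05 with Hoxa9/IRX3. The cohorts did not overlap, but mouse 3.3 came close to the Hoxa9/MTV mice, and the difference of -0.86 (SE 0.30, adjusted p = 0.150) did not pass. Without mouse 3.3 it was -1.17, and Hnrnph1 and its relative Hnrnph3, named for this reason, were then called together with Hnrnpdl. RPKM of Hnrnph3 were 6.07, 4.33 and 5.03 with Hoxa9/MTV and 2.46, 4.58 and 2.36 with Hoxa9/IRX3, so that mouse 3.3 lay among the Hoxa9/MTV mice and the other two below them (-0.68, SE 0.25, adjusted p = 0.166).

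Hnrnpll, known for controlling exon choice in the transcript of the CD45 antigen in lymphocytes, had the most positive difference of all tested members. Its RPKM were 3.65, 2.62 and 3.18 with Hoxa9/MTV and 5.10, 4.76 and 3.45 with Hoxa9/IRX3. Mice 3.2 and 3.3 were above every Hoxa9/MTV mouse while mouse 3.5 lay between them (0.43, SE 0.18, adjusted p = 0.207). The abundant Hnrnpab, which binds RNA and single-stranded DNA, had RPKM of 103, 116 and 110 with Hoxa9/MTV and 121, 112 and 110 with Hoxa9/IRX3. These overlapped almost entirely (0.06, 95% confidence interval -0.25 to 0.37, adjusted p = 0.807), and without 1 mouse the difference ran from 0.017 to 0.098. RPKM of Hnrnpa0, which binds AU-rich RNA, were 211, 235 and 220 with Hoxa9/MTV and 235, 189 and 192 with Hoxa9/IRX3. Mouse 3.2 matched the highest Hoxa9/MTV mouse, the other two lay below all 3, and the difference (-0.12, adjusted p = 0.651) turned to 0.16 with quantile normalization. It was -0.22 without mouse 3.2 and -0.061 without mouse 3.3.

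In 6 of the 20 Hnrnp genes (30%) all Hoxa9/IRX3 mice lay below the Hoxa9/MTV mice, beside 21.6% of all tested genes. Besides Hnrnpdl, Hnrnpd and Hnrnph1, these were Hnrnpa3, Hnrnpk and Hnrnpr, given here after their values were seen. In Hnrnpc and Hnrnpu, 10% of the family, the Hoxa9/IRX3 mice all lay above, beside 12.2% of all tested genes. RPKM of Hnrnpu, a nuclear matrix protein, were 72.7, 66.8 and 63.1 with Hoxa9/MTV and 82.7, 88.5 and 75.1 with Hoxa9/IRX3. Each Hoxa9/IRX3 mouse was above each Hoxa9/MTV mouse, and the difference did not pass (0.28, SE 0.14, adjusted p = 0.269).

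**Figure D3:**
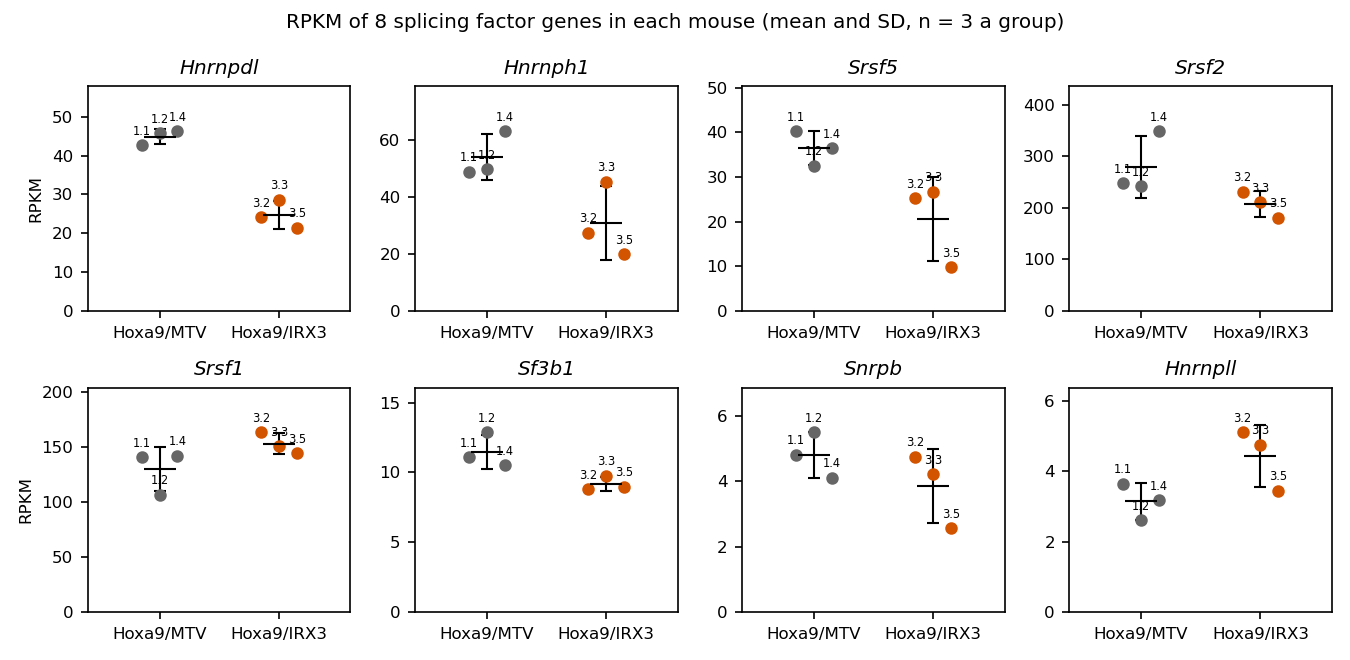
RPKM (vertical axis of each panel, from 0) of 8 members in each Hoxa9/MTV and Hoxa9/IRX3 mouse, with the mean and SD of each group (n = 3). The groups are separate in Hnrnpdl, with means of 44.9 and 24.8, whereas in Hnrnpll and Snrpb they overlap.

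Srsf5, an SR protein, had the most negative difference of any tested member when all 6 mice were used. Its promoter is given for that reason, with the same motifs in capitals, on the plus strand at chr12:80945249-80945548.
Srsf5: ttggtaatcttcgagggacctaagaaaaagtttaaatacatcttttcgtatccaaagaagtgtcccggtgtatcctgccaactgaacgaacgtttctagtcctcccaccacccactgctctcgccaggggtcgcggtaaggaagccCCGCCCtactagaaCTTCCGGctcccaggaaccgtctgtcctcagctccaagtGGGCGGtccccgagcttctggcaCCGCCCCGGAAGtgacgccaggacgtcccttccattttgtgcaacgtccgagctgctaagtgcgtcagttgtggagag
It held 3 GGGCGG and 2 CCGGAAG at 56% G and C, and the run CCGCCCCGGAAG is an overlap of GGGCGG, read on the other strand, with CCGGAAG. RPKM of Srsf5 were 40.3, 32.5 and 36.5 with Hoxa9/MTV and 25.2, 26.7 and 9.84 with Hoxa9/IRX3. All 3 Hoxa9/IRX3 mice lay below the Hoxa9/MTV mice, with mouse 3.5 far below the other two. The difference of -0.93 had a wide error (SE 0.38, 95% confidence interval -1.83 to -0.03) and did not pass (adjusted p = 0.196, lower in 3 of 3 mice). Without mouse 3.5 it was -0.48, less negative than that of Hnrnpdl (-0.76) and Hnrnph1 (-0.59).

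RPKM of Srsf2, which binds exonic enhancers, were 248, 242 and 349 with Hoxa9/MTV and 231, 211 and 181 with Hoxa9/IRX3. The groups did not overlap, although mouse 3.2 came within a narrow margin of mouse 1.2 and mouse 1.4 stood high (-0.41, SE 0.19, 95% confidence interval -0.88 to 0.05, adjusted p = 0.245). The difference was -0.24 without mouse 1.4 and -0.24 with quantile normalization. Srsf1, the prototype of the SR proteins, was the 1 Srsf gene with a difference above 0, with RPKM of 141, 107 and 142 with Hoxa9/MTV and 163, 151 and 144 with Hoxa9/IRX3. Every Hoxa9/IRX3 mouse was above every Hoxa9/MTV mouse, mouse 3.5 barely so, and the difference did not pass (0.25, SE 0.16, adjusted p = 0.394, and 0.11 without mouse 1.2). Besides Srsf2 and Srsf5, the Hoxa9/IRX3 mice all lay below the Hoxa9/MTV mice in Srsf11, which makes 3 of 10 Srsf genes (30%), beside 21.6% of all tested genes.

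Single mice stood apart in 2 further SR genes, named after their values were seen. RPKM of Srsf7 were 29.9, 32.2 and 67.8 with Hoxa9/MTV and 31.6, 31.9 and 16.8 with Hoxa9/IRX3, so that mouse 1.4 was high and mouse 3.5 low while the other four were alike (-0.64, SE 0.39, adjusted p = 0.356). RPKM of Srsf6 were 80.6, 78.5 and 93.1 with Hoxa9/MTV and 80.3, 59.4 and 35.2 with Hoxa9/IRX3. Here mouse 3.2 lay among the Hoxa9/MTV mice and mouse 3.5 was again lowest (-0.60, SE 0.30, adjusted p = 0.271).

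Among the Sf3 genes, Sf3b1, the large subunit that holds the branch site, had the most negative difference. Its RPKM were 11.1, 12.9 and 10.5 with Hoxa9/MTV and 8.82, 9.76 and 8.995 with Hoxa9/IRX3. The 3 Hoxa9/IRX3 mice were close together and all below the Hoxa9/MTV mice, and the difference did not pass (-0.30, SE 0.13, 95% confidence interval -0.62 to 0.01, adjusted p = 0.218). RPKM of Sf3b2, another SF3B subunit, were 14.6, 15.3 and 13.8 against 13.1, 15.5 and 15.2. The cohorts covered the same range (0.00, 95% confidence interval -0.31 to 0.32, adjusted p = 0.992). RPKM of Sf3b6, the small subunit that contacts the branch site, were 5.96, 6.31 and 5.98 against 5.97, 6.89 and 7.36. Mice 3.3 and 3.5 were above the Hoxa9/MTV mice and mouse 3.2 lay among them (0.13, adjusted p = 0.539, with 0.21 without mouse 3.2 and 0.072 without mouse 3.5). In 3 of 9 Sf3 genes (33.3%, beside 21.6% of all tested genes) the Hoxa9/IRX3 mice all lay below, Sf3b1 and, named after their values were seen, Sf3a1 and Sf3b4, the last by a difference of only -0.04.

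The Sm ring is built from the products of Snrpb, Snrpd1, Snrpd2, Snrpd3, Snrpe, Snrpf and Snrpg. RPKM of Snrpb were 4.81, 5.48 and 4.10 with Hoxa9/MTV and 4.75, 4.21 and 2.57 with Hoxa9/IRX3. Mice 3.2 and 3.3 lay among the Hoxa9/MTV mice and mouse 3.5 was below them (-0.32, SE 0.23, adjusted p = 0.423), and without mouse 3.5 the difference was -0.084. RPKM of Snrpd1 were 1.29, 1.37 and 1.75 against 1.35, 1.11 and 1.18, an overlap at mouse 3.2 (-0.20, adjusted p = 0.384, and -0.097 without mouse 1.4). RPKM of Snrpd2 were 2.44, 2.24 and 1.75 against 1.24, 2.61 and 1.497, with mouse 3.3 the highest of all 6 (-0.25, adjusted p = 0.542), and the difference was -0.50 without that mouse and -0.076 without mouse 3.2. RPKM of Snrpd3 were 2.57, 2.31 and 2.47 against 1.88, 2.22 and 1.68. It was the 1 ring gene whose cohorts did not overlap, by a small gap, and its difference did not pass (-0.29, SE 0.12, adjusted p = 0.206).

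RPKM of the remaining ring genes were close to 1 and crossed freely between cohorts. Snrpe had 1.62, 0.825 and 2.13 against 1.12, 1.08 and 1.74 RPKM (-0.12, adjusted p = 0.817), and its difference turned to 0.10 without mouse 1.4. Snrpf had 1.54, 1.10 and 1.98 against 1.52, 1.51 and 0.751 RPKM (-0.22, adjusted p = 0.606), and its difference was 0.0058 without mouse 3.5, the lowest, and -0.071 without mouse 1.4, the highest. Snrpg had 1.00, 0.625 and 0.847 against 1.13, 0.794 and 0.531 RPKM (-0.02, adjusted p = 0.954), with 3.2 the highest and 3.5 the lowest mouse, and its difference was 0.14 without mouse 3.5 and 0.07 without mouse 1.1.

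Snrpb2, a protein of the U2 particle, had the most negative difference among the Snrp genes, with RPKM of 4.24, 4.24 and 3.98 with Hoxa9/MTV and 3.09, 4.21 and 2.55 with Hoxa9/IRX3. Mouse 3.3 lay among the tightly grouped Hoxa9/MTV mice and the other two below (-0.32, SE 0.17, adjusted p = 0.302), and the difference was -0.49 without mouse 3.3 and -0.18 without mouse 3.5. Apart from Snrpd3, the cohorts did not overlap in Snrpa and Snrpc, both proteins of the U1 particle and named after their values were seen, with the Hoxa9/IRX3 mice lower. RPKM of Snrpa were 2.32, 2.31 and 2.45 against 2.19, 2.25 and 2.15, a narrow gap (-0.09, adjusted p = 0.605). These make 3 of 11 Snrp genes (27.3%) with all Hoxa9/IRX3 mice below, beside 21.6% of all tested genes.

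Across mice, much of the negative difference lay in mouse 3.5. As deviations of log2(RPKM + 0.5) from each gene's mean over the 6 mice, the median member was at 0.05, 0.06 and 0.09 in the Hoxa9/MTV mice and at -0.02, 0.02 and -0.21 in the Hoxa9/IRX3 mice, while all tested genes together were at -0.11 in mouse 3.5. Mouse 3.5 was the lowest of the 6 for 26 of 50 members (52%), beside 33.3% of all tested genes. Mouse 1.4 was the highest for 17 members (34%), beside 20.1% of all tested genes. The Srsf genes spread most, with median deviations of 0.10, 0.06 and 0.36 in the Hoxa9/MTV mice and -0.01, -0.06 and -0.42 in the Hoxa9/IRX3 mice. Mouse 3.5 was lowest in 8 of 10 Srsf genes and mouse 1.4 highest in 6. The Snrp genes were at 0.17, 0.07 and 0.11 against -0.04, -0.01 and -0.27, so that mice 3.2 and 3.3 were near 0 and mouse 3.5 apart. Sf3 deviations were small, between -0.13 in mouse 3.5 and 0.09 in mouse 3.3.

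Leaving out mouse 3.5 moved the median difference of Srsf to -0.22, of Snrp to -0.18 and of Sf3 to 0.0026, and leaving out mouse 3.2 moved that of Srsf to -0.47. Leaving out mouse 3.2, 1.4, 1.2 or 3.3 gave Hnrnp medians of -0.12, -0.09, -0.02 and -0.02, and mouse 3.5 was lowest in 9 of 20 Hnrnp genes. The median-of-ratios size factor of mouse 3.5 was 0.914, the lowest of the 6, and no scaling moved the median of all tested genes by more than 0.08.

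**Figure D4:**
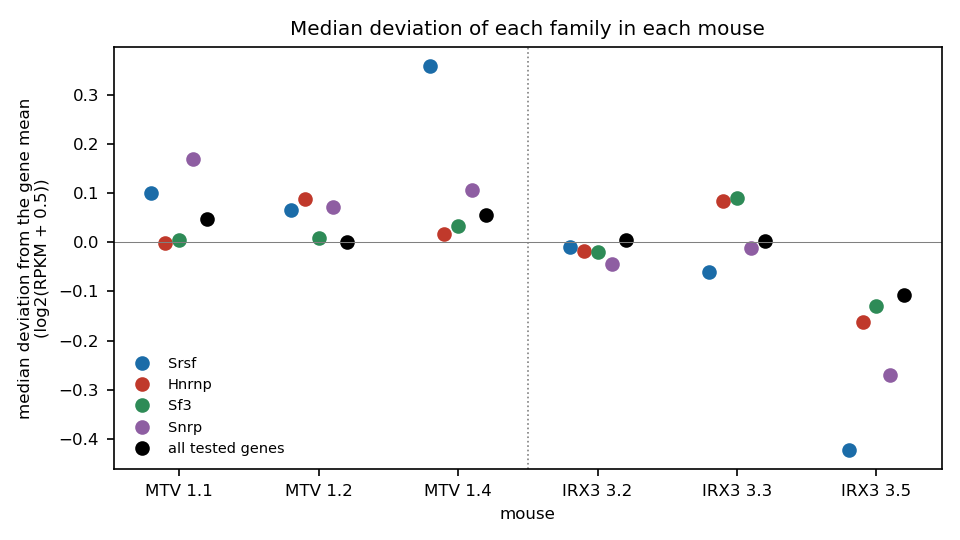
Median deviation of each family and of all tested genes (vertical axis, log2(RPKM + 0.5) minus the mean of the gene over 6 mice) in each of the 3 Hoxa9/MTV and 3 Hoxa9/IRX3 mice (horizontal axis), 1 colored point a family. Srsf runs from 0.36 in mouse 1.4 to -0.42 in mouse 3.5, and all families are below 0 in mouse 3.5. The median differences of Hnrnp and Sf3 between cohorts lie above 0 with median-of-ratios scaling and quantile normalization, as does that of all tested genes (0.01 and 0.02).

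**Figure D5:**
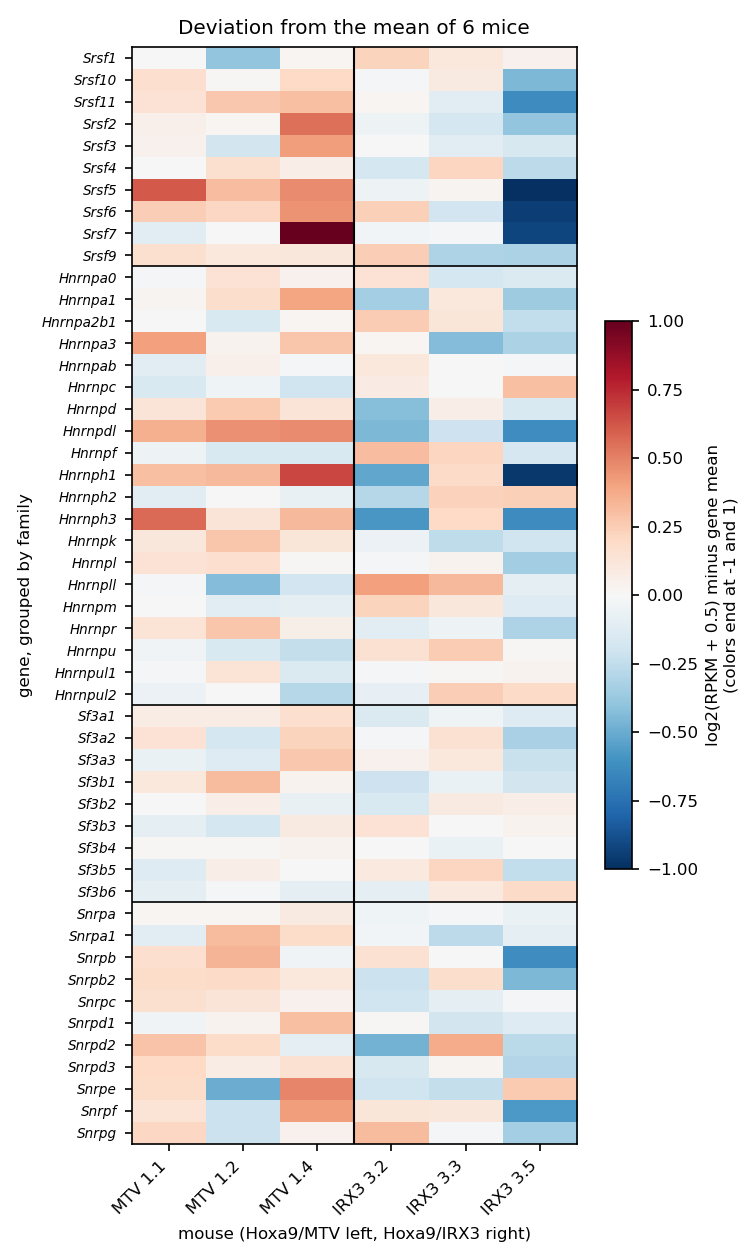
Deviation of log2(RPKM + 0.5) from the mean of each gene over the 6 mice, for every tested member (vertical axis, grouped by family) in each mouse (horizontal axis), with colors that end at -1 and 1. Hnrnpdl separates the 3 Hoxa9/MTV from the 3 Hoxa9/IRX3 mice, while Srsf7 stands out in mice 1.4 and 3.5.

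The promoter windows of the members shared several short motifs. GGGCGG was in 68.3% of their 63 windows (33 of 46 genes) and in 35.7% of all 32851 RefSeq windows, CCAAT in 44.4% (23 genes) and 37.4%, and CCGGAAG in 33.3% (16 genes) and 8.86%. ATGGCGG was in 20.6% (11 genes) and 4.05%, and CACGTG in 11.1% (6 genes) and 7.15%. By family GGGCGG was most frequent in Srsf, in 10 of 11 genes, and CCGGAAG in Sf3, in 6 of 7. The Iroquois motif ACANNTGT was in 1.59% of members' windows, those of Hnrnpf alone, and in 7.38% of all windows. RPKM of Hnrnpf, a relative of Hnrnph1 named for this match, were 6.12, 5.68 and 5.67 with Hoxa9/MTV and 7.97, 7.47 and 5.59 with Hoxa9/IRX3. Mouse 3.5 was the lowest of the 6 and the other two Hoxa9/IRX3 mice were highest (0.23, adjusted p = 0.393). A match is a run of letters in the window and does not show binding.

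Gene structure and sequence copies bear on how these RPKM can be read. Bowtie2 aligns reads without gaps for introns, and of all windows of 75 bases, the read length, in 1 transcript for each of 51 members, a median of 76.3% lay inside 1 exon, 83.1% in Srsf, 75.0% in Sf3, 74.2% in Hnrnp and 71.7% in Snrp. The range was from 36.8% in Sf3a3 to 100% in the single-exon genes Hnrnpa0 and Sf3b5, so that levels between genes are approximate. Windows identical to a transcript of another gene occurred in 26 members and made up over 20% in 9, whose values are uncertain for this reason, Hnrnpa3 (90.3%), Hnrnpf (46.4%), Hnrnpa1 (44.4%), Sf3b4 (43.2%), Hnrnpk (29.0%), Hnrnpm (28.4%), Srsf3 (25.2%), Snrpe (24.0%) and Srsf5 (23.7%). In Hnrnpdl they were 2.502%, and in Srsf1, Srsf2, Hnrnpab, Hnrnph1, Sf3b1 and Snrpb 0. Another annotated gene overlapped 21 members and a tested gene 9, of which Hnrnpm alone on the same strand. Srsf2 lies wholly within Mettl23 on the opposite strand, but in mouse 1.1 it had 7002 reads and the whole of Mettl23 125. Phykpl, also on the opposite strand, covers 65.1% of Hnrnpab and had 71 reads in that mouse against 6155. The reads counted for Srsf2 and Hnrnpab were thus not counted for these genes as well. RPKM over whole genes do not separate transcript forms, so use of the exons that lead to RNA decay was not measured.

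Outside these families, 10 lists of splicing genes held 173 tested genes, of which 1 was higher with Hoxa9/IRX3 and 0 were lower (limma, adjusted p under 0.05), beside 1.84% and 3.52% of all tested genes. At an unadjusted p under 0.05, 6 were higher (3.47%) and 22 lower (12.7%), beside 8.34% and 16.0% of all tested genes, and with limma voom on recovered reads 1 was called higher and 0 lower. The cohorts did not overlap in 9 genes that were higher (5.20%) and 43 that were lower (24.9%), beside 12.2% and 21.6%. Their median difference was -0.15, with 49 above 0 and 124 below, beside -0.06 over all tested genes (4047 above and 5475 below). It was -0.07 with median-of-ratios scaling, -0.06 with quantile normalization and -0.07 without mouse 3.5. Over all tested genes the medians of those fits were 0.01, 0.02 and -0.03. The called gene was Mbnl2, a muscleblind protein that regulates alternative exons, with RPKM of 1.11, 1.01 and 0.887 with Hoxa9/MTV and 2.03, 1.93 and 2.16 with Hoxa9/IRX3. All 3 Hoxa9/IRX3 mice were far above the narrow range of the Hoxa9/MTV mice, and expression rose by 0.76 (SE 0.11, adjusted p = 0.0166, higher in 3 of 3 mice). Without mouse 1.1, 1.2 or 1.4 the adjusted p was 0.0687, 0.0953 and 0.101, so that the call was lost, and over the fits without 1 mouse it ranged from 0.0274 to 0.101.

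By list, the median difference was -0.37 in the 10 genes of U1 and the 5′ splice site, -0.17 in the 17 of U2 and the branch site, -0.04 in the 21 of the tri-snRNP and 0.02 in the 10 LSm proteins. It was -0.17 in the 25 genes of the Prp19 complex and the catalytic steps, -0.21 in the 14 of the exon junction complex and -0.28 in the 18 SR-related proteins and SR kinases. In the 35 other RNA-binding regulators, which hold Mbnl2, it was -0.09, in the 9 genes of the minor spliceosome -0.28 and in the 14 of Sm ring assembly -0.05. Except for Mbnl2, 0 genes of these lists were called by limma in either direction. RPKM of Luc7l3, a U1-associated protein chosen after its values were seen, were 5.45, 4.99 and 4.80 with Hoxa9/MTV and 3.09, 3.56 and 2.27 with Hoxa9/IRX3. The cohorts were well apart, but the difference missed the threshold (-0.70, SE 0.16, adjusted p = 0.0631). RPKM of Clk1, a kinase that phosphorylates SR proteins, also chosen after its values were seen, were 12.5, 11.2 and 9.07 against 6.80, 8.50 and 3.12. Mouse 3.5 was again lowest, and the difference did not pass (-0.87, SE 0.34, adjusted p = 0.184). Of genes with differences above 0, Pcbp1 (0.63, adjusted p = 0.164) and Mbnl3 (0.60, adjusted p = 0.0917) were also chosen after their values were seen. In both, each Hoxa9/IRX3 mouse was above each Hoxa9/MTV mouse, and neither was called.

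Markers of differentiation moved between the same mice, and their part in the values of the splicing genes was not tested. Of 8 tested markers of the sorted cells, 2 rose with Hoxa9/IRX3, the neutrophil elastase gene Elane (715, 1053 and 614 against 3324, 3332 and 2237 RPKM, log2 difference 1.91, adjusted p = 0.0144) and Ly6g, which encodes the Gr1 antigen in part (0.145, 0.124 and 0.0532 against 1.42, 0.682 and 1.13 RPKM, 1.35, adjusted p = 0.0205). The 9 listed genes summed to 1776, 2310 and 1578 RPKM against 4939, 4935 and 4160, with Elane most abundant. RPKM of Kit were 3.12, 2.64 and 2.48 against 2.70, 1.63 and 2.14, so the receptor used in the gate was detected in every mouse (-0.31, adjusted p = 0.323). The tested markers of this list had differences on both sides of 0, 5 above and 3 below, the last being Kit, Itgam (-0.47, adjusted p = 0.622) and Cd33 (-0.89, adjusted p = 0.614), in which the cohorts overlapped. Of 5 tested monocyte and macrophage markers, 2 fell, Ccr2 (-2.06, adjusted p = 0.00843) and Cd68 (-2.68, adjusted p = 0.0135), and the 8 listed genes summed to 341, 362 and 293 RPKM against 113, 182 and 146, with Lyz2 most abundant. All 3 Hoxa9/IRX3 mice were below the Hoxa9/MTV mice in that sum.

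Of 10 mature neutrophil markers, 1 rose, Retnlg (1.75, adjusted p = 0.0285), and their sums, led by Ngp, were 1511, 2226 and 1521 RPKM against 2068, 1179 and 3398. Of the 10, 7 had differences above 0 and 3 below, Ltf (-0.99, adjusted p = 0.315), Mmp8 (-0.75, adjusted p = 0.320) and Ngp (-0.13, adjusted p = 0.870), with overlapping cohorts. Mouse 3.5, lowest in many splicing genes, was highest in this sum, with S100a8 at 1367 RPKM, and it also had the highest Nkg7, 482 RPKM against 32.9, 32.8 and 22.6 with Hoxa9/MTV and 100.2 and 14.9 in mice 3.2 and 3.3. Nkg7 was the 1 tested gene of the T and NK cell list, whose sums equalled it nearly and in which Cd3d was at 0. Of 2 tested B cell genes 1 fell, Cd79b (-2.65, adjusted p = 0.0383), the most abundant, with sums of 6.35, 7.15 and 7.30 RPKM against 0.819, 0.652 and 5.03 and Ms4a1 and Pax5 at 0. The other tested B cell gene, Vpreb1, had 0.0926, 0.0493 and 0.169 RPKM against 0.231, 0.376 and 2.72, higher in all 3 Hoxa9/IRX3 mice and not called (1.08, adjusted p = 0.272). Of 3 tested mast cell and basophil genes 1 fell, Cpa3 (-1.40, adjusted p = 0.0432), with sums of 10.2, 14.4 and 14.4 RPKM against 4.31, 7.30 and 5.73, Mcpt8 most abundant, and Fcer1a and Tpsb2 at 0. Of the others in that list, Ms4a2 had 0.290, 0.279 and 0.542 RPKM against 1.09, 0.610 and 0.933, higher in all 3 Hoxa9/IRX3 mice (0.66, adjusted p = 0.103), whereas Mcpt8 was lower in all 3 (-1.21, adjusted p = 0.0621), and neither was called. Each of these 7 marker calls was lost without at least 1 mouse. Ccr2 and Elane lost it without mouse 1.1 or 1.4, and Cd68, Ly6g and Retnlg without mouse 1.1, 1.2 or 1.4, while Cd79b was called only without mouse 3.5 and Cpa3 only without mouse 1.2. The highest adjusted p so reached ranged from 0.0549 in Ccr2 to 0.157 in Cpa3.

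Erythroid genes passed the filter in 0 cases, with Alas2, Hba-a1, Hba-a2 and Hbb-bt at 0, Klf1 most abundant and sums of at most 0.303 RPKM. The 1 tested gene of the megakaryocyte list was not called, Gp1ba and Ppbp were at 0, and sums, led by Gp9, stayed at or below 0.857 RPKM. The 1 tested gene of the stroma and endothelium list, Pecam1, was not called, with list sums of 1.96, 1.83 and 1.98 RPKM against 0.568, 3.16 and 6.34. Of 20 cell cycle genes limma called 0 in either direction, with 2 higher and 2 lower at an unadjusted p under 0.05, a median difference of 0.04, and sums, led by Mki67, of 250.2 RPKM in mouse 1.1, 242 and 233 in mice 1.2 and 1.4, and 201, 305 and 242 with Hoxa9/IRX3. The sums of the cell cycle genes overlapped between cohorts, and that of mouse 3.5 lay within the range of the Hoxa9/MTV mice.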

How the data were processed

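RPKM per gene and mouse were deposited by the authors, who aligned paired-end reads of strand-specific polyA libraries to GRCm38 with Bowtie2 2.2.1, removed low-quality alignments with SAMtools 0.1.19 (versions from the submitters' processing notes) and assigned reads to Ensembl genes. The 6 libraries are of 6 separate mice, 3 a group. Gene types, spans and exons came from GENCODE M21. Reads were recovered from the RPKM, whole within 0.01 of a read in every library for 33 of 52 members and 65.0% of tested genes and approximate for the rest, and reads on genes summed to between 104% and 105% of the reads scaled to, so that some count for more than 1 gene.

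Protein-coding genes over 0.5 RPKM in at least 1 mouse were tested on log2(RPKM + 0.5), a scale that understates changes of low genes, with limma 3.58.1 in R 4.3.3 (lmFit, eBayes with a variance trend, two-sided), checked on simulated data. Genes were called at a Benjamini-Hochberg adjusted p under 0.05. Members, gene lists and tests were chosen with earlier results of these data known. Genes named by rule were, in each family, the 2 most abundant on the exon scale and the largest positive and negative difference, called members, Srsf2, Sf3b1, Snrpb, Snrpn, the Sm ring, members not tested and up to 2 called genes of each splicing list. Alternatives were pseudocounts of 0.1 and 1, other filters, all gene types, median-of-ratios and quantile scaling, no variance trend, array weights, voom on recovered reads, exon lengths, the study's criterion and leaving out each mouse. Mouse numbers do not pair the cohorts. Python 3.11.15, pandas 2.3.3, numpy 2.4.6, scipy 1.17.1 and matplotlib 3.10.9 made the summaries and plots.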

Additional observations from a re-analysis of the deposited data

How the results depend on the processing

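Of the recomputed values, 401 were labelled unchanged. Differences so labelled kept their direction and their side of the threshold. Counts equalled the reported count or stayed within a set ratio of it, and medians moved by less than the spread between mice. Another 14 counts or medians moved further, 10 differences changed sign, 5 lost a call and 1 gained it. All 5 lost calls were of Hnrnpdl, the 1 called member, over its 18 alternatives. Other filters, all gene types and no variance trend leave the difference of a gene the same by construction, so its direction could not change there. The number of members called lower was 0 with all gene types (204 of 12806 genes lower) but 1 without the filter (284 of 14755 lower). It was 0 with the study's criterion, which asks for a 2-fold ratio (449 of 9522 lower), and 0 to 3 when 1 mouse was left out (37 to 497 of 9522 lower). Other splicing genes called higher numbered 2 with quantile normalization and 0 to 1 without 1 mouse, and those called lower 0 to 2 without 1 mouse. The median difference of the members was -0.11 with quantile normalization and -0.22 to -0.095 without 1 mouse. With median-of-ratios scaling Snrpg turned to 0.028, and with quantile normalization Hnrnpa0 turned to 0.16 and Snrpg to 0.041. Without 1 mouse the differences ran from -0.042 to 0.078 in Sf3b2, -0.40 to 0.10 in Snrpe, -0.39 to 0.0058 in Snrpf and -0.19 to 0.14 in Snrpg, none of which was called. Where no construction of the alternative is named, the cause was not tested. Snrpg has no value with the filter of a mean over 1 RPKM, which left 47 members. With 3 mice a group the standard error of a member's difference had a median of 0.16, and an uncalled difference is not shown to be absent. These errors did not follow read numbers alone, being 0.09 in Snrpa, with 159 to 220 reads a mouse, and 0.19 in Srsf2, with 4619 to 10789.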
